A study of Mus musculus with 19 samples.

Results

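Whole skin carrying early basal cell carcinoma (BCC) and treated with topical vismodegib was compared with healthy skin of the same mouse strain, to see which genes stood away from healthy skin under the drug. The members were chosen by their labels: the 4 mice labelled as induced and treated with vismodegib (5 libraries) and the 5 mice labelled as not induced (6 libraries), which make 9 of the 16 mice and 11 of the 19 libraries of the series. The pair of libraries of vismodegib replicate 4 and the pair of healthy replicate 5 each came from 1 mouse and were summed, so that the mouse was the replicate. Untreated BCC skin of 4 mice (4 libraries) was used beside them to show where vismodegib skin lay between both states. The remaining 3 mice (4 libraries) carried BCC treated with ablative fractional laser. They are not compared here but entered the same statistical fit.

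All mice were female and carried Ptch1+/- K14-CreER2 p53fl/fl, so that healthy mice had the single working Ptch1 allele and the floxed Trp53 as well. Vismodegib mice had been induced with tamoxifen (300 µg, injected 3 times) and a single x-ray exposure (4 Gy), had carried the induction for 109 to 137 days, were 268 to 326 days old, had received 8 vismodegib applications and carry the label day 4. BCC mice had the same induction 130 to 144 days earlier, were 278 to 320 days old and had no treatment. Laser-treated mice had the same induction 80 to 126 days earlier and were 228 to 326 days old. Healthy mice had neither tamoxifen nor x-rays nor treatment and were 128 to 137 days old. The comparison of vismodegib with healthy skin therefore holds the drug, its application, tumour induction, x-rays and age at once, and these cannot be told apart; no vehicle-treated skin was analysed here. The K14-CreER2 transgene acts in cells that express keratin 14, so Trp53 stays intact in skin cells that are neither these nor their descendants.

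Basal cell carcinoma arises when the Hedgehog pathway runs without control. Patched receptors, of which Ptch1 is the main one, hold back the membrane protein Smoothened, and once released Smoothened lets the Gli transcription factors switch on targets that include Gli1, Ptch1 and Hhip. Vismodegib blocks Smoothened. The same pathway drives the growth phase of the hair follicle, and the epidermis above it is renewed by basal keratinocytes that rise, stop dividing and build a cornified envelope.

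Expected counts of reads per gene summed to between 27185921 and 33556611 in a library, and levels are given as CPM (counts scaled to a common library total), which do not compare genes of different length. Of 15760 genes tested with edgeR's quasi-likelihood test, 1834 (11.6%) had an adjusted p under 0.05, of which 1193 rose (7.57%) and 641 fell (4.07%) in vismodegib skin against healthy skin. The difference was at least 2-fold for 1378 of them. The mice of the groups did not overlap, with vismodegib higher, for 9.33% of the genes tested, and with vismodegib lower for 6.78%. Leaving out vismodegib replicate 2 raised the number of changed genes to 3490, and leaving out vismodegib replicate 3 lowered it to 951. Scaling by library size alone moved the median log2 fold change of all genes from 0.02 to -0.25, and the split then was 590 rises and 895 falls. Keratinocyte genes were abundant in every mouse (Krt5 had 9404, 8409, 11170 and 7804 CPM in vismodegib skin and 6125, 6967, 4471, 5711 and 4810 CPM in healthy skin). In whole skin, fewer cells of a type and less RNA per cell cannot be told apart.

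**Figure D1:**
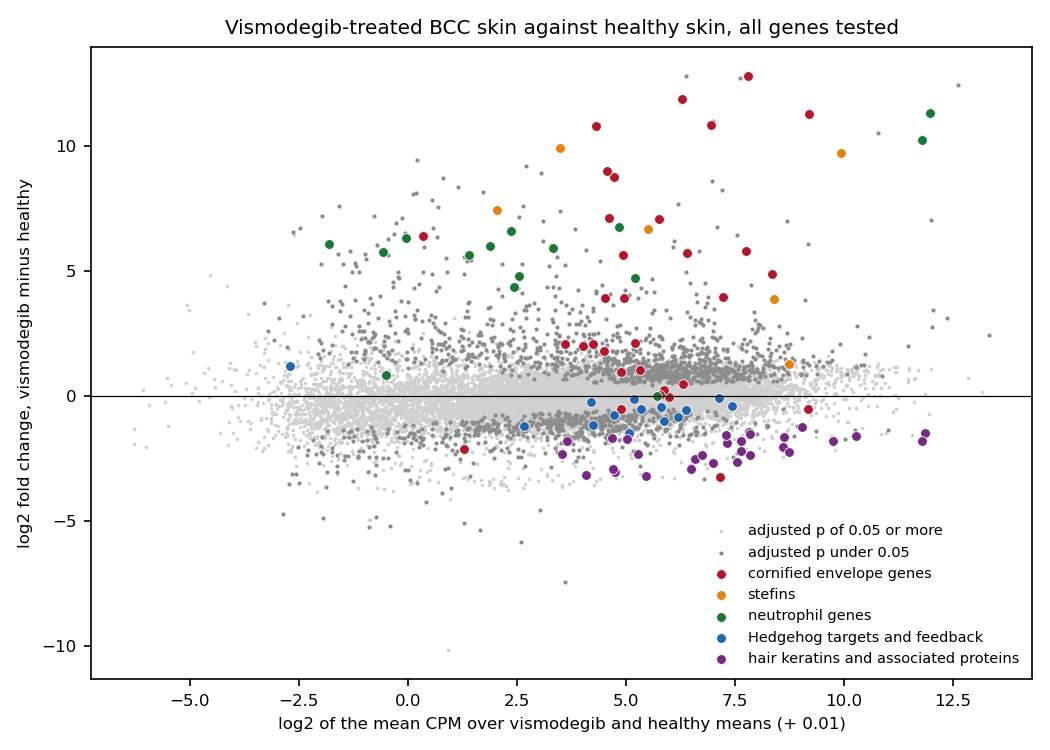
Each point is 1 of 15760 genes, with the log2 of its mean level in CPM on the x axis and its log2 fold change, vismodegib minus healthy, on the y axis. Cornified envelope genes, stefins and neutrophil genes reach the top of the plot, up to 12.83 for Sprr2b, while the Hedgehog targets lie between -1.47 and 1.22 and the hair keratins between -3.21 and -1.25.

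Trp53, the floxed gene, was low under vismodegib. It had 26.8, 53.2, 25.3 and 55.1 CPM in vismodegib skin, 31.5, 27.6, 23.6 and 36.3 CPM in BCC skin and 114, 143, 124, 94 and 123 CPM in healthy skin. All vismodegib mice lay below all healthy mice, with a log2 fold change of -1.57 (SE 0.254, adjusted p = 0.00112) against healthy skin, and 2 of them lay above every BCC mouse, with a difference of 0.43 (adjusted p = 0.26) against BCC skin.

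No Hedgehog target passed against healthy skin under vismodegib, and 8 of 14 were lower than in BCC skin. Gli1, the transcription factor that reads out the pathway, had 25.3, 101, 22.4 and 59.95 CPM in vismodegib skin, 302, 307, 314 and 258 CPM in BCC skin and 94.6, 103, 118, 39.8 and 118 CPM in healthy skin. Vismodegib and healthy mice overlapped and the BCC mice stood above both groups. The log2 fold change of Gli1 was -0.86 against healthy skin (SE 0.435, adjusted p = 0.188) and -2.50 against BCC skin (adjusted p = 0.00294). Gli2, the main activator among the Gli factors, had 30.2, 52.4, 14.9 and 35.8 CPM in vismodegib skin, a mean of 117 ± 21.8 CPM in BCC skin (SD, n = 4) and 51.6, 56.2, 49.2, 35.8 and 48.7 CPM in healthy skin. Vismodegib and healthy mice overlapped again, with log2 fold changes of -0.53 against healthy skin (SE 0.289, adjusted p = 0.214) and -1.81 against BCC skin (adjusted p = 0.0017). Ptch1 had 29, 74.2, 29.7 and 57.8 CPM in vismodegib skin and 66.5, 66.7, 79.8, 28.1 and 80.6 CPM in healthy skin, which overlapped (-0.43, SE 0.39, adjusted p = 0.462), and its difference from BCC skin did not pass either (-1.13, adjusted p = 0.0706). Hhip, a secreted inhibitor that binds Hedgehog ligands, had 2.87, 5.17, 3.08 and 4.39 CPM in vismodegib skin, against 34.1, 138, 162 and 74.2 CPM in BCC skin and 6.92, 7.43, 12.5, 5.27 and 12.3 CPM in healthy skin. Every vismodegib mouse lay below every healthy mouse, but the log2 fold change of -1.19 did not pass (SE 0.486, adjusted p = 0.108), while that against BCC skin did (-4.71, adjusted p = 0.000207).

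**Figure D2:**
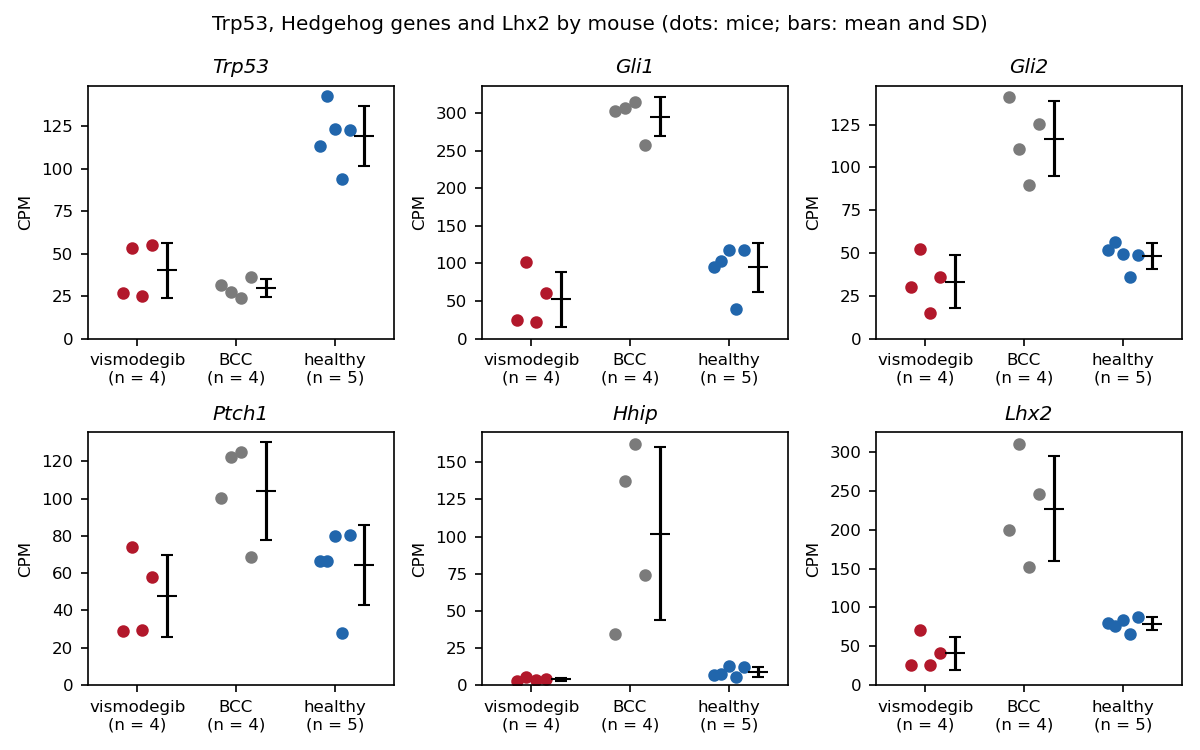
Levels in CPM (y axes, from 0) of Trp53, 4 Hedgehog genes and the follicle placode factor Lhx2 in vismodegib, BCC and healthy skin, with 1 dot per mouse and the mean and SD as a bar. Gli1, Gli2 and Hhip are highest in BCC skin, while Trp53 is low in vismodegib and BCC skin.

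Of the 14 Hedgehog targets and feedback genes, 0 rose and 0 fell against healthy skin at an adjusted p under 0.05, with a median log2 fold change of -0.54, beside 0.02 over all genes tested. At an unadjusted p under 0.05 edgeR gave 1 rise and 1 fall among them, and DESeq2 called 0. Against BCC skin, where 9% of all genes fell and 8.03% rose, 8 of them fell and 0 rose, with a median of -1.24. The comparisons share the vismodegib mice. Without vismodegib replicate 2, the mouse with the highest Gli1 and Gli2 of its group, 8 of the 14 fell and 1 rose against healthy skin (median -0.90). Gli1 (-1.40, adjusted p = 0.0302) and Gli2 (-0.84, adjusted p = 0.0467) then passed. Vismodegib replicate 2 was also the only mouse of its group with high hair keratins (mean log2(CPM + 1) of 7.64, against 0.93, 1.16 and 1.36). With the mean level of hair keratins as a covariate, 0 of the 14 rose and 0 fell (median -0.28). Against healthy skin, where 4.07% of all genes tested fell and 7.57% rose, 0 of 14 Hedgehog ligands and transducers rose and 2 fell (14.3%). They were Disp1, which releases the ligand from the cells that make it (-1.09, SE 0.307, adjusted p = 0.0323), and Evc, which acts beside Smoothened in the cilium (-0.89, SE 0.253, adjusted p = 0.0337). Both calls were lost without vismodegib replicate 3 or healthy replicate 2, 4 or 5, that of Evc also without vismodegib replicate 1 or healthy replicate 3, and without vismodegib replicate 2 the number that fell was 5. Over the fits that left out 1 mouse each, the log2 fold change lay between -1.24 and -0.86 for Disp1 (adjusted p up to 0.0823) and between -1.12 and -0.70 for Evc (adjusted p up to 0.0948). With both groups alone in the fit Disp1 (adjusted p = 0.0588) and Evc (adjusted p = 0.0786) lost their calls, as Evc did with the mean level of hair keratins as a covariate (adjusted p = 0.0689). Smo itself, a list member named after its values were seen, differed by -0.25 (SE 0.228, adjusted p = 0.458).

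Of 19 genes of the follicle placode and of BCC, 2 fell (10.5%) and 0 rose against healthy skin. Over all genes tested, 4.07% fell and 7.57% rose. Against BCC skin, where 9% of all genes fell, 9 of the 19 fell. Cd34, a marker of the follicle bulge and of vessels, had 121, 124, 143 and 134 CPM in vismodegib skin and 176, 309.8, 289, 481 and 476 CPM in healthy skin, without overlap (-1.41, SE 0.286, adjusted p = 0.00568). Krt15, a keratin of bulge stem cells, had 724, 768, 532 and 757 CPM in vismodegib skin and 2056, 1426, 1166, 2608 and 1603 CPM in healthy skin, again without overlap (-1.35, SE 0.347, adjusted p = 0.0225). Its call was lost without vismodegib replicate 3 (-1.24) or healthy replicate 4 (-1.17), and without vismodegib replicate 2 the list had 8 falls and 1 rise. Of 26 Wnt pathway genes, 3 fell (11.5%) and 0 rose (median -0.77), beside the same shares over all genes. The falls numbered 1 without vismodegib replicate 3, 8 without vismodegib replicate 2, and 5 with scaling by library size alone. Nkd1, a Wnt-induced inhibitor of the pathway, had 4.58, 10.6, 2.55 and 7.28 CPM in vismodegib skin and 18.7, 21, 21.4, 15.4 and 19.3 CPM in healthy skin, without overlap (-1.61, SE 0.374, adjusted p = 0.0133).

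Hair keratin levels differed widely within the groups, and results on follicle genes are read beside them. The 30 hair keratins and associated proteins, which build the hair shaft and its sheath in growing follicles, had a mean log2(CPM + 1) of 0.93, 7.64, 1.16 and 1.36 in vismodegib skin, 7.71, 1.97, 1.51 and 2.50 in BCC skin, and 9.02, 7.98, 8.01, 6.35 and 3.13 in healthy skin. Vismodegib replicate 2 and BCC replicate 1 lay within the range of the healthy mice, below 3 of the 5, the other vismodegib and BCC mice were low, and healthy replicate 5 was the lowest healthy mouse. Their summed level ranged over 50.3 to 24700 CPM in vismodegib skin and 1740 to 50500 CPM in healthy skin. None of the 30 passed against healthy skin (0 rose, 0 fell, median -2.12), but 28 of the 30 fell without vismodegib replicate 2, with a median of -9.03. At an unadjusted p under 0.05 edgeR gave 1 fall among the 30, and DESeq2 called 1 fall. Melanocyte genes, which pigment the growing hair, had mean levels of 1.63, 5.65, 2.56 and 3.07 in vismodegib skin and 5.73, 6.34, 6.36, 3.27 and 4.19 in healthy skin, with the same mouse high, and 0 of 15 passed in edgeR (1 fall at an unadjusted p under 0.05, and 1 called by DESeq2). With the hair keratin mean added to the fit of all genes as a covariate, called the hair covariate here, 696 genes rose and 1289 fell.

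**Figure D3:**
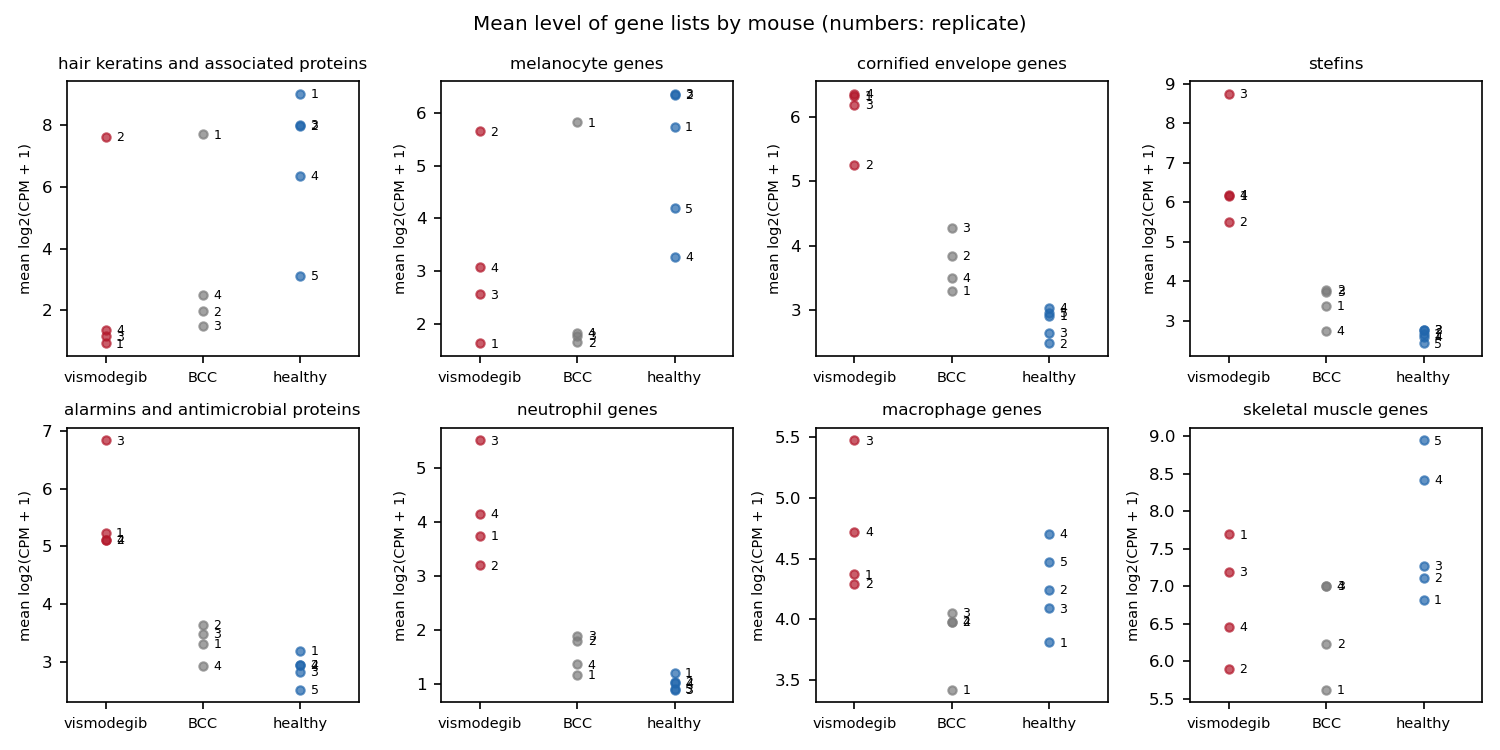
Mean level of 8 gene lists, as mean log2(CPM + 1) on the y axes, with 1 point per mouse and the replicate number beside it, in vismodegib, BCC and healthy skin. Vismodegib replicate 2 stands high for hair keratins (7.64), vismodegib replicate 3 stands high for alarmins (6.84), and cornified envelope, stefin, alarmin and neutrophil genes are higher in all 4 vismodegib mice than in any BCC or healthy mouse.

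Most genes of the cornified envelope rose, and the largest single rise was among them. Of 33 such genes tested, 23 rose and 2 fell against healthy skin (median log2 fold change 3.95; 23 rose and 0 fell without vismodegib replicate 3, and 19 rose and 1 fell under the hair covariate), and against BCC skin 18 rose and 1 fell. The rises were led by the small proline-rich proteins of the Sprr2 family, which are crosslinked into the envelope and are induced in stressed epidermis. Sprr2b had 606, 124, 724 and 321 CPM in vismodegib skin, 0.29, 1.03, 1.21 and 1.2 CPM in BCC skin and 0.0296, 0.0875, 0.0828, 0.0289 and 0.0578 CPM in healthy skin. Sprr2d had 1657, 351, 1814 and 888 CPM in vismodegib skin and 0.177, 0.35, 0.221, 0.724 and 0.809 CPM in healthy skin. Sprr2e had 284, 70.4, 465 and 167 CPM in vismodegib skin and 0.0296, 0.117, 0.11, 0.0579 and 0.275 CPM in healthy skin. Sprr2i had 200.2, 46.1, 257 and 122 CPM in vismodegib skin and 0.0591, 0.0875, 0, 0 and 0.0434 CPM in healthy skin. In all 4 genes every vismodegib mouse lay above every healthy and BCC mouse, and vismodegib replicate 2 was the lowest of its group. Lying apart from the healthy mice was a condition for the largest rises and falls named here, while BCC mice played no part in that choice. The log2 fold changes against healthy skin were 12.83 for Sprr2b (SE 0.858, adjusted p = 4.09e-07), 11.29 for Sprr2d (SE 0.815, adjusted p = 5.99e-07), 10.84 for Sprr2e (SE 0.756, adjusted p = 5.82e-07) and 11.88 for Sprr2i (SE 0.784, adjusted p = 4.09e-07). The members of this family are near copies, so the counts of single members are uncertain where reads could be split between them.

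The 10 Sprr2 genes with a RefSeq start site in GRCm38.p6 all rose, and the start regions of the 4 with the largest rises are shown because they share short motifs at matched positions. Each runs 5′ to 3′ from 250 bases before to 50 bases after the annotated start, on the plus strand of chromosome 3, and capitals mark matches to TGANTCA (the AP-1 motif), ATTTGCAT (the octamer motif) and TATAAA (the TATA box), searched on both strands.
Sprr2b, chr3:92316455-92316754: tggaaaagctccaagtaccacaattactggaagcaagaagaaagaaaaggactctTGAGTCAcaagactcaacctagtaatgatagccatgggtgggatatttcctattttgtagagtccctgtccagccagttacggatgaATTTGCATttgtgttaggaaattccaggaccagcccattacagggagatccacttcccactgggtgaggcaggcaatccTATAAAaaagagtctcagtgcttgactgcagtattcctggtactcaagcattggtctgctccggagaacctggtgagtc
Sprr2d, chr3:92338890-92339189: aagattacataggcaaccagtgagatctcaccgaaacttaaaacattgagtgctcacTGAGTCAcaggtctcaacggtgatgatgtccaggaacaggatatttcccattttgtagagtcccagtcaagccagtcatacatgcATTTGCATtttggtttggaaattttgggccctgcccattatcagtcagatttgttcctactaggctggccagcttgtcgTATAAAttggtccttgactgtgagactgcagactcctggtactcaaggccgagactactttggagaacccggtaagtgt
Sprr2e, chr3:92351893-92352192: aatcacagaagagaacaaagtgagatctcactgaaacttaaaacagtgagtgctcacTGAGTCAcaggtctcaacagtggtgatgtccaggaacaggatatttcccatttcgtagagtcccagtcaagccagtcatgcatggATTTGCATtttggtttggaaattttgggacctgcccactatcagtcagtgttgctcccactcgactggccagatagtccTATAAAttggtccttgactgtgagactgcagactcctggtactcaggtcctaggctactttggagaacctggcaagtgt
Sprr2i, chr3:92407741-92408040: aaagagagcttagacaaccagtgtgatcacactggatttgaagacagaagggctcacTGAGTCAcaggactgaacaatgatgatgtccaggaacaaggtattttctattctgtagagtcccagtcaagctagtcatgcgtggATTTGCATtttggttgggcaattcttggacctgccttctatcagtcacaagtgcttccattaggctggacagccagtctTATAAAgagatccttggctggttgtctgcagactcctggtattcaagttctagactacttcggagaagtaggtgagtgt
The TATA box began 29 bases before the start in all 4, the octamer 108 bases before it, and the AP-1 match 195 bases before it in Sprr2b and 193 bases before it in the others. Of the 10 windows, 7 held all of these motifs and the windows of Sprr2a1, Sprr2a2 and Sprr2a3 held none of them. Over all 32851 RefSeq windows of this length, 7.81% held the AP-1 motif, 1.74% the octamer and 13.6% the TATA box. A match describes the letters and does not show that a factor binds.

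Late cornified envelope genes rose and fell. Lce3e, a late cornified envelope gene of the group known from wounded skin, had 41, 20.6, 56.5 and 41.7 CPM in vismodegib skin, 1.71, 6.76, 4.57 and 0.354 CPM in BCC skin and 0, 0, 0, 0.0579 and 0.0289 CPM in healthy skin. BCC mice lay between the other groups, and the log2 fold change against healthy skin was 10.82 (SE 0.904, adjusted p = 2.53e-06), from 4 counts in all healthy mice. Lce1m went the other way, with 43.8, 12.2, 5.79 and 48.9 CPM in vismodegib skin and 179.8, 132, 165, 440.2 and 380.4 CPM in healthy skin and no overlap (-3.23, SE 0.807, adjusted p = 0.0204). Its call was lost without vismodegib replicate 3 (-2.90, adjusted p = 0.0563). Of 28 genes of terminal differentiation and desquamation, 15 rose and 0 fell (median 1.65; 14 rose and 1 fell under the hair covariate). The 3 with the smallest p were kallikreins, proteases that cut the links between cornified cells. Klk9 had 260.5, 77.2, 146 and 198 CPM in vismodegib skin and 5.38, 3.67, 5.44, 10.9 and 11.1 CPM in healthy skin, without overlap (4.54, SE 0.432, adjusted p = 9.64e-06). Klk14 (4.00, SE 0.475, adjusted p = 7.08e-05) and Klk8 (3.06, SE 0.372, adjusted p = 8.17e-05) rose as well. The classical envelope gene Lor, named as part of the tissue check, had 654, 93.3, 134 and 401 CPM in vismodegib skin and 258, 196, 200.2, 694 and 595 CPM in healthy skin, with overlap and no call (-0.28, SE 0.727, adjusted p = 0.816).

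Krt6a, Krt6b and Krt16, keratins of stressed and wounded epidermis, rose against healthy skin. Krt6b had 7195, 6028, 28410 and 8966 CPM in vismodegib skin, 172, 479, 232 and 31.9 CPM in BCC skin and 5.82, 0.875, 0.469, 1.27 and 2.66 CPM in healthy skin. The groups did not overlap and vismodegib replicate 3 was the highest (12.47, SE 1.18, adjusted p = 9.61e-06). Krt16, a partner of the keratin 6 proteins, had 6701, 4353, 15230 and 6312 CPM in vismodegib skin and 70.6, 54.4, 34.8, 109 and 41.7 CPM in healthy skin (7.04, SE 0.624, adjusted p = 5.29e-06), and Krt6a had 7055, 8018, 14390 and 8259 CPM in vismodegib skin and 1639, 1575, 960.0, 856 and 319 CPM in healthy skin (3.14, SE 0.574, adjusted p = 0.00273). Neither gene overlapped between the groups. Of the 12 keratins of this list 3 rose and 1 fell, and its median was -0.99. The fall was lost without any of vismodegib replicates 1, 3 and 4 or healthy replicates 2 to 5, and 5 fell without vismodegib replicate 2. Of 16 basal keratinocyte and hemidesmosome genes 3 rose and 0 fell. Krt14, the keratin of the basal layer and the promoter behind the Cre, had 11260, 14240, 31180 and 13080 CPM in vismodegib skin and 3539, 4019, 2578, 3415 and 2623 CPM in healthy skin, without overlap (2.43, SE 0.373, adjusted p = 0.00074). Itga6, an integrin that anchors basal cells (1.37, SE 0.238, adjusted p = 0.00186), and Cd44, a hyaluronan receptor (1.09, SE 0.26, adjusted p = 0.015), were the others. The call of Cd44 was lost with scaling by library size alone (0.81) and under the hair covariate (0.91). Of 28 cell cycle genes 0 rose and 0 fell (median 0.54), with 8 rises at an unadjusted p under 0.05, 1 rise called by DESeq2 and 2 rises under the hair covariate.

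Most stefins and a majority of clade B serpins, which are protease inhibitors of the epidermis, rose. Of 6 stefins, inhibitors of cysteine cathepsins, 5 rose and 0 fell (median 7.06). Stfa3 had 795, 413, 5784 and 787 CPM in vismodegib skin, 22.5, 64.9, 52.5 and 7.6 CPM in BCC skin and 0.71, 1.54, 2.46, 2.43 and 4.03 CPM in healthy skin. All vismodegib mice lay above all others and vismodegib replicate 3 was the highest by a wide margin (9.75, SE 0.993, adjusted p = 1.76e-05). Cstdc6, a neighbour in the same gene cluster, had 127, 57.9, 713 and 130.0 CPM in vismodegib skin and 0.177, 0.0875, 0.138, 0.0289 and 0.159 CPM in healthy skin (11.01, SE 1.06, adjusted p = 1.21e-05). Of 16 clade B serpins 9 rose and 0 fell, or 4 rose without vismodegib replicate 3, and 5 rose and 1 fell under the hair covariate. Serpinb3a had 226, 39.7, 1186 and 110.0 CPM in vismodegib skin and 0.0296, 0.0292, 0.0276, 0.0289 and 0.116 CPM in healthy skin, without overlap (12.73, SE 1.36, adjusted p = 3.69e-05). Stefins and the Serpinb3 genes also have near copies, so single members are uncertain.

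**Figure D4:**
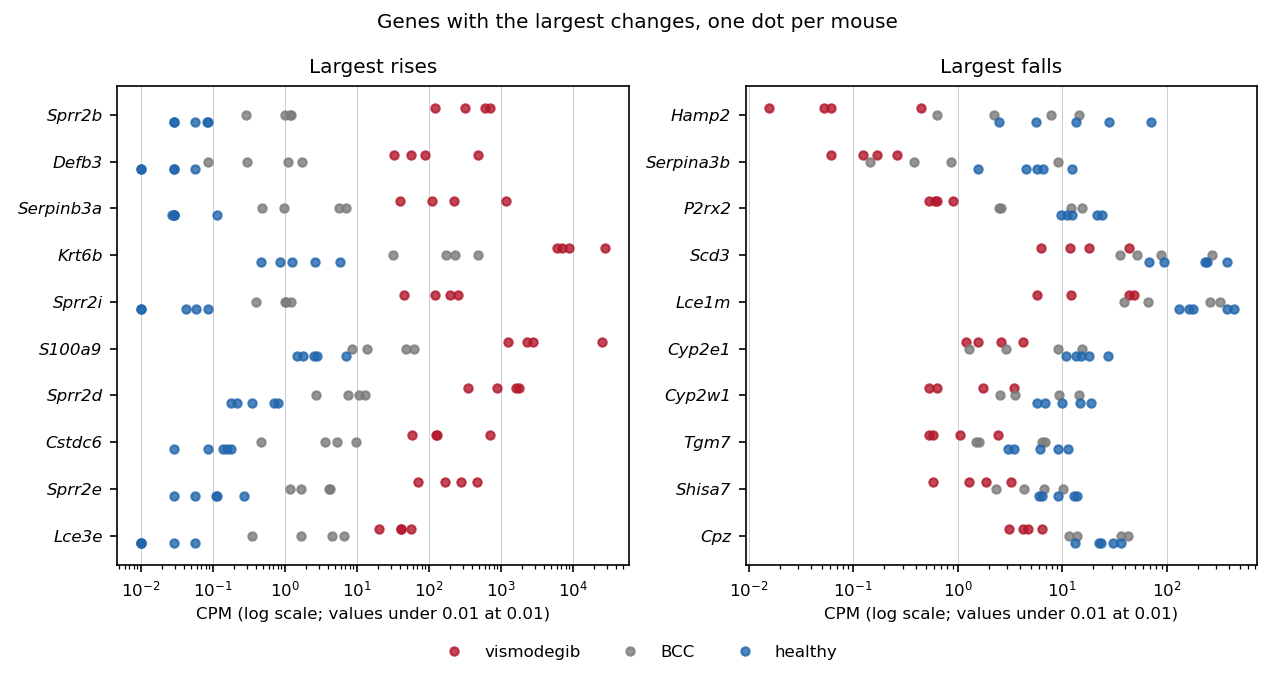
Levels in CPM on a log axis of the 10 genes with the largest rises and the 10 with the largest falls, with 1 dot per mouse in vismodegib (upper dots of each gene), BCC (middle) and healthy skin (lower). For the rises, BCC mice lie between the other groups, as in Sprr2b with 0.29, 1.03, 1.21 and 1.2 CPM.

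Most genes of alarmins and antimicrobial proteins rose. Of 21 tested, 14 rose and 0 fell against healthy skin (median 3.82; 11 rose and 1 fell under the hair covariate), as 14 did against BCC skin. S100a9, which with S100a8 forms calprotectin, had 2852, 1277, 25900 and 2341 CPM in vismodegib skin, 8.63, 63, 48.4 and 14.2 CPM in BCC skin and 7.12, 2.54, 1.79, 2.81 and 1.49 CPM in healthy skin. No vismodegib mouse overlapped with the others, and vismodegib replicate 3 was far above its group (11.33, SE 1.49, adjusted p = 0.000206). Defb3, a beta defensin that kills bacteria, had 90.4, 33.6, 485 and 57.5 CPM in vismodegib skin, against 0.0296, 0.0292, 0, 0.0579 and 0 CPM in healthy skin, where 4 counts were found in all (12.82, SE 1.29, adjusted p = 2e-05). Chil1, a chitinase-like protein of inflamed tissue, had 1528, 527, 1540 and 965 CPM in vismodegib skin and 22.4, 17.8, 16.8, 12.7 and 13.5 CPM in healthy skin, with no overlap (6.10, SE 0.396, adjusted p = 4.09e-07). Lcn2, an iron-trapping protein, rose by 6.45 on the log2 scale (SE 0.683, adjusted p = 2.44e-05).

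Most neutrophil genes rose as well. Of 15 tested, 13 rose and 0 fell (median 5.94), and 11 rose without vismodegib replicate 3. Their summed level was 2460 to 49600 CPM in vismodegib skin, 44 to 175 CPM in BCC skin and 45 to 89 CPM in healthy skin, with the calprotectin genes included, which keratinocytes also make. Cxcr2, the receptor by which neutrophils follow chemokines, had 54.8, 21.7, 73.5 and 78.2 CPM in vismodegib skin and 0.769, 0.35, 0.497, 0.463 and 0.506 CPM in healthy skin, without overlap (6.78, SE 0.789, adjusted p = 5.95e-05). Csf3r, the receptor of the neutrophil growth factor, had 45.6, 34.7, 70.7 and 136 CPM in vismodegib skin and 2.37, 2.3, 2.02, 3.68 and 3.3 CPM in healthy skin, again apart (4.71, SE 0.52, adjusted p = 3.69e-05). Mpo, the granule enzyme of neutrophils, did not pass, with 1.26, 0.213, 1.17 and 0.927 CPM in vismodegib skin and 1.6, 0.321, 0.138, 0.0579 and 0.39 CPM in healthy skin (0.83, SE 0.703, adjusted p = 0.429; named after its values were seen). The share of neutrophils in the levels of alarmins was not tested.

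Most cytokine genes of the epidermis rose. Of 29 IL-1, IL-36 and epidermal cytokine genes, 23 rose and 1 fell against healthy skin (median 3.44), and 19 rose and 0 fell against BCC skin. The fall was lost without any single mouse other than healthy replicate 2. Il1f6, which encodes IL-36 alpha, had 154, 64.4, 266 and 101 CPM in vismodegib skin, 5.59, 19, 22.3 and 11.2 CPM in BCC skin and 0.236, 0.233, 0.69, 0.984 and 1.24 CPM in healthy skin. The BCC mice lay between the others and no group overlapped with healthy skin (7.71, SE 0.631, adjusted p = 2.21e-06). Il1f5, the antagonist of the IL-36 receptor, had 233, 105, 188 and 204 CPM in vismodegib skin and 21.4, 15.9, 19.3, 32.9 and 28.9 CPM in healthy skin and rose too (2.95, SE 0.314, adjusted p = 2.63e-05). Il17f, a cytokine of type 17 lymphocytes that acts on keratinocytes, had 7.04, 3.41, 35.4 and 6.81 CPM in vismodegib skin, 0.0579, 0.0882, 0.0622 and 0.245 CPM in BCC skin and 0, 0.0583, 0, 0 and 0.0289 CPM in healthy skin. It was nearly undetected outside vismodegib skin (9.22, SE 0.905, adjusted p = 1.21e-05). The related Il17a and Il22, named after their values were seen, had 1.64, 1.55, 8.87 and 1.76 CPM and 1.13, 0.0913, 5.63 and 2.34 CPM in vismodegib skin. Il17a held 1 count in all healthy mice, and the ratio of scaled counts was 544 (95% counting interval from 97 to 21500) (adjusted p = 4.43e-05). Il22 held 0 counts there and was at least 140.0-fold higher in vismodegib skin, computed against a floor of 3 counts over the group (adjusted p = 0.00511). Both the interval and the floor describe counting error alone.

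Chemokines rose less evenly. Of 30, 13 rose and 0 fell (median 1.69). The count was 4 rises and 1 fall without vismodegib replicate 3, between 7 and 8 rises without healthy replicate 3, 4 or 5, 7 rises and 2 falls with scaling by library size alone, and 5 rises and 3 falls under the hair covariate. Cxcl5, which draws neutrophils, had 9.29, 10.7, 30.5 and 15.6 CPM in vismodegib skin and 0, 0.146, 0.0276, 0 and 0 CPM in healthy skin, without overlap (8.93, SE 1.41, adjusted p = 0.00106). Cxcl1, with the same role, had 26.8, 6.12, 28.4 and 11.8 CPM in vismodegib skin and 0.325, 0.292, 0.662, 0.521 and 0.65 CPM in healthy skin (5.20, SE 0.816, adjusted p = 0.000886). The plot of list shares shows where these lists stand among the others.

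**Figure D5:**
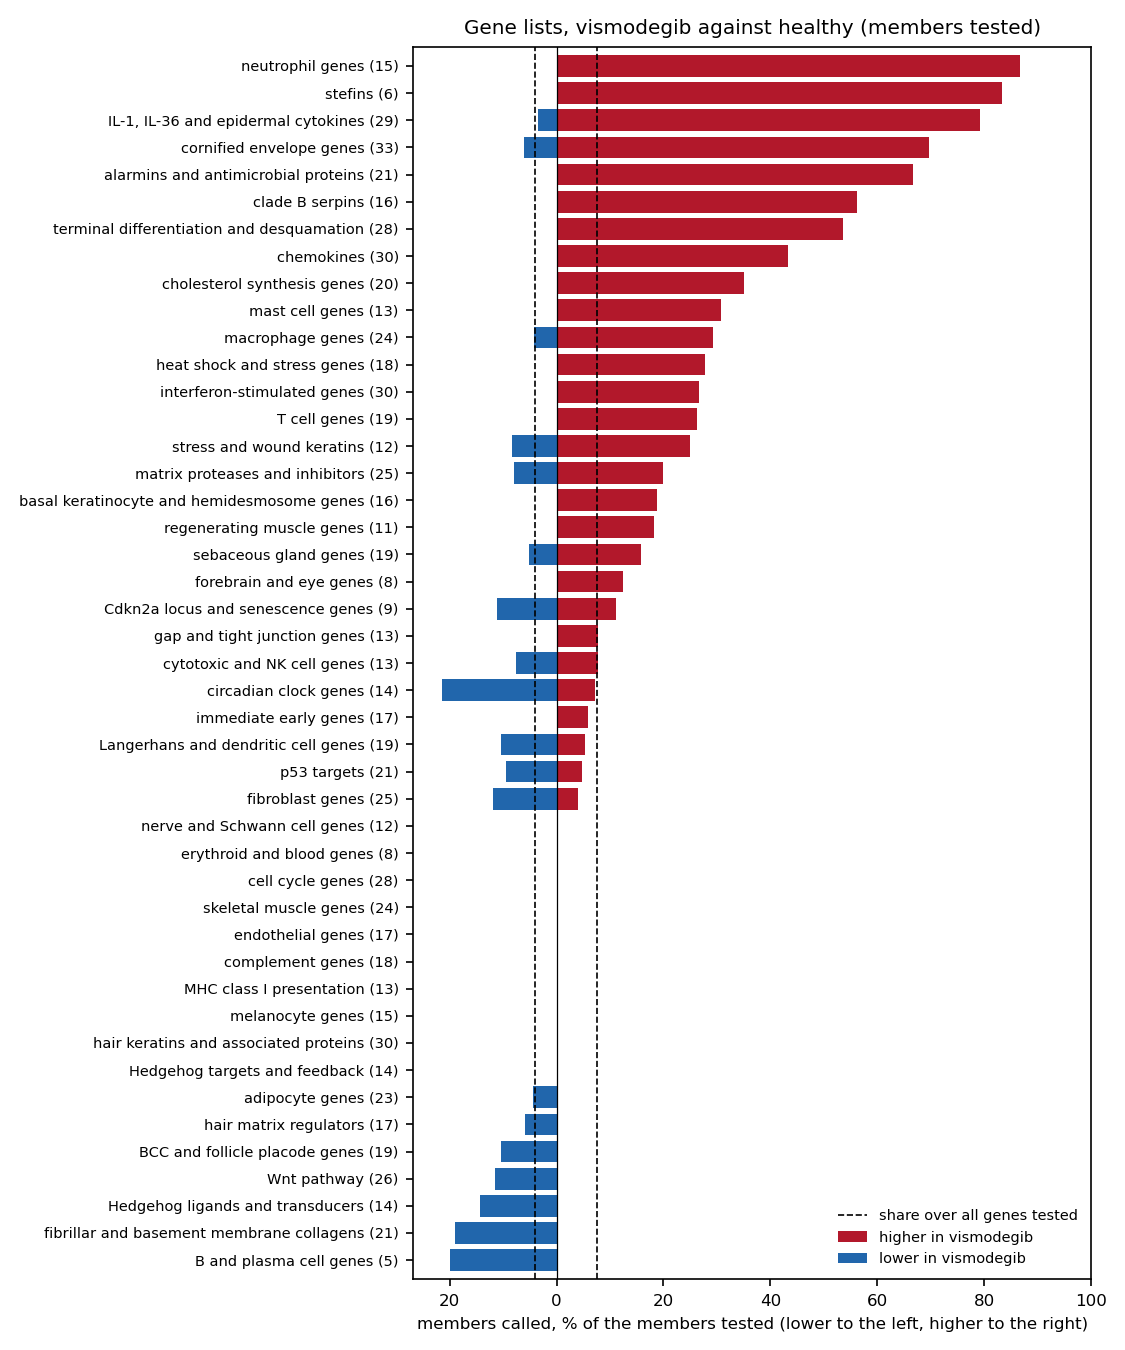
Share of the tested members of each of 45 gene lists that passed in vismodegib against healthy skin, in percent on the x axis, higher to the right and lower to the left, with the number tested after each name. Dashed lines give the shares over all genes tested, 7.57% and 4.07%; neutrophil genes (86.7%), stefins (83.3%) and the cytokine list (79.3%) reach farthest to the right.

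Other immune cells changed in part. Of 24 macrophage genes 7 rose and 1 fell (median 0.38), or 4 rose without vismodegib replicate 3, and 3 rose and 2 fell under the hair covariate (median 0.04). No macrophage gene fell without vismodegib replicate 1 or 4 or healthy replicate 1, 2, 4 or 5. Fcgr4, an activating antibody receptor, had 1.67, 1, 13.2 and 3.71 CPM in vismodegib skin and 0.236, 0.437, 0.248, 0.463 and 0.376 CPM in healthy skin (3.77, SE 0.63, adjusted p = 0.00141), and Msr1, a scavenger receptor, had 12.5, 2.44, 54.5 and 15.4 CPM in vismodegib skin and 0.857, 1.2, 1.82, 1.82 and 2.01 CPM in healthy skin (3.77, SE 0.661, adjusted p = 0.00197). Neither gene overlapped, and vismodegib replicate 3 was the highest for both. The call of Msr1 was lost under the hair covariate (2.30, adjusted p = 0.0532). Of 19 T cell genes 5 rose and 0 fell (median 0.33), or 3 rose without vismodegib replicate 3 or without healthy replicate 3. Under the hair covariate 1 rose and 2 fell and the median turned to -0.23, and with scaling by library size alone it turned to -0.02. Il2ra, the high-affinity subunit of the IL-2 receptor, had 17.4, 5.45, 16.2 and 12.8 CPM in vismodegib skin and 3.64, 2.07, 2.12, 5.24 and 3.77 CPM in healthy skin, without overlap (1.94, SE 0.364, adjusted p = 0.00316). Tigit, an inhibitory receptor (1.94, SE 0.451, adjusted p = 0.0133), and Cd5 (1.07, SE 0.256, adjusted p = 0.0159) rose as well, while the T cell receptor component Cd3e, named after its values were seen, had 5.81, 2.04, 2.23 and 6.33 CPM in vismodegib skin and 5.74, 6.82, 5.88, 13.3 and 10.7 CPM in healthy skin and did not pass (adjusted p = 0.156). The call of Cd5 was lost without healthy replicate 3 (0.96) and with scaling by library size alone (0.76), and under the hair covariate both Tigit (1.13) and Cd5 (0.97) lost theirs. Of 13 cytotoxic and NK cell genes 1 rose and 1 fell (7.69% each, median 0.08), beside 7.57% and 4.07% of all genes tested. Gzmb, a granzyme, rose (3.57, SE 0.551, adjusted p = 0.000792). Nkg7, a protein of cytotoxic granules, had 2.08, 1.25, 2.6 and 2.64 CPM in vismodegib skin and 3.87, 5.01, 4.91, 7.76 and 8.6 CPM in healthy skin, without overlap (-1.49, SE 0.432, adjusted p = 0.0359), and its call was lost without any single mouse other than healthy replicates 1 and 3. Under the hair covariate 1 rose and 2 fell, with a median of -0.77, and with scaling by library size alone the median was -0.11.

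Mast cell and basophil genes rose in 4 of 13 cases and fell in 0 (median 0.69), or 3 rose and 1 fell under the hair covariate, with a median of -0.25. Mcpt8, a protease of basophils, had 0.239, 1.83, 1.22 and 0.66 CPM in vismodegib skin and 0.0296, 0, 0, 0.0289 and 0.0289 CPM in healthy skin (5.49, SE 0.744, adjusted p = 0.000243). Fcer1a, the IgE receptor chain, had 2.56, 3.41, 14.7 and 5.83 CPM in vismodegib skin, against 0.296, 0.262, 0.386, 0.868 and 1.01 CPM in healthy skin (3.52, SE 0.611, adjusted p = 0.00188). In both genes the groups stood apart. Of 19 Langerhans and dendritic cell genes 1 rose (5.26%) and 2 fell (10.5%), beside 7.57% and 4.07% of all genes tested (median of the list -0.15). The count was 0 rises and 8 falls under the hair covariate (median -0.88) and 1 rise and 4 falls with scaling by library size alone. Ccr7, by which dendritic cells leave the skin, rose (1.67, SE 0.388, adjusted p = 0.0132), and its call was lost under the hair covariate (0.79, adjusted p = 0.128). Cd74, the chaperone of MHC class II, had 402, 209, 328 and 504 CPM in vismodegib skin and 572, 680.3, 612, 1540 and 1416 CPM in healthy skin, without overlap (-1.42, SE 0.41, adjusted p = 0.0359). Its call and that of the second gene that fell, Irf4, were lost without vismodegib replicate 1 or 3 or healthy replicate 4 or 5, and that of Cd74 also without vismodegib replicate 2 and with both groups alone in the fit (adjusted p = 0.0542). Over the fits without 1 mouse each, the log2 fold change lay between -1.62 and -1.19 for Cd74 and between -1.72 and -1.33 for Irf4. Of 30 interferon-stimulated genes 8 rose and 0 fell (median 0.92). The count was 13 without vismodegib replicate 2, 4 without vismodegib replicate 4 or healthy replicate 1 or under the hair covariate, and 3 without healthy replicate 2, 3 or 5 or with scaling by library size alone.

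Some collagens of the dermis fell, with calls that rested on single mice. Of 21 fibrillar and basement membrane collagens 0 rose and 4 fell (19%) against healthy skin (median -0.72). Over all genes tested, 7.57% rose and 4.07% fell. Against BCC skin, where 9% of all genes fell, 14 of the collagens fell. Col1a1, the main fibrillar collagen chain, had 317, 583, 307 and 752 CPM in vismodegib skin, 1861, 6145, 1111 and 4520 CPM in BCC skin and 480.5, 1610, 1746, 1799 and 2337 CPM in healthy skin. Vismodegib mice overlapped with healthy replicate 1 alone (-1.70, SE 0.513, adjusted p = 0.0423). No collagen passed without vismodegib replicate 1 or 3 or without healthy replicate 2, 3, 4 or 5, and 7 fell without healthy replicate 1. Over these fits the log2 fold change of Col1a1 lay between -1.99 and -1.52. There were 7 falls under the hair covariate, and with both groups alone in the fit Col1a1 lost its call (adjusted p = 0.0528). Of 25 matrix proteases and inhibitors 5 rose (20%) and 2 fell (8%). Without vismodegib replicate 2, 8 rose and 6 fell, and 4 fell with scaling by library size alone. Timp1, an inhibitor of matrix metalloproteases, had 61.7, 44.4, 405 and 132 CPM in vismodegib skin and 2.4, 4.96, 6.93, 4.05 and 7.4 CPM in healthy skin, without overlap (4.96, SE 0.72, adjusted p = 0.000469). Of 25 fibroblast genes 1 rose (4%, beside 7.57% of all genes) and 3 fell (12%, beside 4.07% of all genes), with a median of -0.48. The rise was Tnc, a matrix protein of wounds, which had 461, 347, 539 and 681 CPM in vismodegib skin and 105, 199, 154, 78.5 and 52.7 CPM in healthy skin, without overlap (2.10, SE 0.396, adjusted p = 0.00327). Among the falls were Cd248, a surface protein of stromal cells (-1.62, SE 0.405, adjusted p = 0.0197), and the matrix glycoprotein Fn1 (-1.16, SE 0.303, adjusted p = 0.0234). Both calls were lost without vismodegib replicate 1 or 3 or healthy replicate 5, that of Cd248 also with both groups alone in the fit, and that of Fn1 without healthy replicate 2 or 4 or under the hair covariate (-1.07). No fibroblast gene fell without vismodegib replicate 1 or healthy replicate 5, 1 fell without vismodegib replicate 3 or healthy replicate 2 or 4, 7 fell without healthy replicate 1 and 5 with scaling by library size alone, and 3 rose without vismodegib replicate 2.

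Tissue below the dermis varied between mice. Of 24 skeletal muscle genes 0 rose and 0 fell (median -0.80; 4 fell at an unadjusted p under 0.05 and 2 in DESeq2), with a summed level of 3310 to 16800 CPM in vismodegib skin and 8050 to 37500 CPM in healthy skin. Of 23 adipocyte genes 0 rose and 1 fell (4.35%, near the 4.07% of all genes tested), with a median of -1.01. Their summed level was 3220 to 10200 CPM in vismodegib skin and 4600 to 17600 CPM in healthy skin. The gene that fell was Thrsp, a regulator of fat synthesis, with 4.54, 6.91, 13.7 and 15.1 CPM in vismodegib skin and 6.36, 52.9, 78.8, 89.3 and 126 CPM in healthy skin, with overlap at healthy replicate 1 (-2.81, SE 0.704, adjusted p = 0.0199). Its call was lost without vismodegib replicate 1 (-2.57) or 3 (-2.99). Falls numbered 14 muscle genes and 15 adipocyte genes under the hair covariate. Of 11 genes of regenerating muscle 2 rose and 0 fell, or 4 rose without vismodegib replicate 2 and 1 without vismodegib replicate 1 or 3 or any 1 healthy mouse. Under the hair covariate 0 rose and 0 fell, and their median was -1.04 in place of 0.71. Myh3, the embryonic myosin, had 1.74, 0, 0.212 and 4.07 CPM in vismodegib skin and 0.0296, 0, 0.0552, 0.0579 and 0.13 CPM in healthy skin, with overlap (4.58, SE 1.04, adjusted p = 0.0125), and lost its call under the hair covariate (2.53, adjusted p = 0.191).

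Lipid genes of the epidermis and sebaceous gland rose in part. Of 20 cholesterol synthesis genes 7 rose (35%) and 0 fell, beside 7.57% and 4.07% of all genes tested. With scaling by library size alone 4 rose, and under the hair covariate 3 rose. Cyp51 had 508, 222, 677 and 349 CPM in vismodegib skin and 178, 148, 165, 144 and 218 CPM in healthy skin (1.36, SE 0.251, adjusted p = 0.00285), and Sqle had 456, 203, 361 and 274 CPM in vismodegib skin and 174, 137, 147, 128 and 164 CPM in healthy skin (1.11, SE 0.223, adjusted p = 0.00536). Both encode enzymes of the sterol pathway, and in both every vismodegib mouse was above every healthy mouse. Of 19 sebaceous gland genes 3 rose (15.8%) and 1 fell (5.26%, near the share over all genes), or 8 rose and 2 fell without vismodegib replicate 2. Their median was 0.09, but -0.56 under the hair covariate, where 1 rose and 3 fell, and -0.22 with scaling by library size alone. Elovl3, an elongase of sebum fatty acids, had 758, 121, 502 and 514 CPM in vismodegib skin and 123, 44.8, 59.2, 46 and 58.8 CPM in healthy skin, with vismodegib replicate 2 inside the healthy range (2.83, SE 0.432, adjusted p = 0.000708). Scd3, a desaturase of the gland, fell, with 43.9, 6.36, 18.1 and 11.9 CPM in vismodegib skin and 234, 93.6, 67.7, 375 and 242 CPM in healthy skin (-3.34, SE 0.847, adjusted p = 0.0219), and lost its call without vismodegib replicate 3 (-3.30) or 4 (-3.15) or healthy replicate 4 (-2.99).

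Beside Scd3 and Lce1m, the 10 largest falls held genes of several kinds. Hamp2, a hepcidin family gene, had 0.444, 0.0609, 0.0531 and 0.0157 CPM in vismodegib skin, 0.637, 2.23, 7.8 and 14.4 CPM in BCC skin and 13.8, 5.6, 2.48, 70.4 and 28.1 CPM in healthy skin. Vismodegib mice lay below all others (-7.45, SE 1.54, adjusted p = 0.00696). P2rx2, an ATP-gated ion channel, had 0.615, 0.913, 0.637 and 0.534 CPM in vismodegib skin and 12.4, 9.83, 11.1, 24.3 and 21.4 CPM in healthy skin (-4.55, SE 0.614, adjusted p = 0.000233). Serpina3b, a serine protease inhibitor, had 0.171, 0.0609, 0.266 and 0.126 CPM in vismodegib skin and 12.4, 6.53, 5.82, 1.56 and 4.53 CPM in healthy skin (-5.36, SE 1.16, adjusted p = 0.00858). None of these genes overlapped between vismodegib and healthy skin, which was a condition for the 10 largest falls and is not a result. The other 5 were the cytochromes Cyp2e1 (-2.83) and Cyp2w1 (-2.80), the transglutaminase Tgm7 (-2.50), Shisa7 (-2.46) and the carboxypeptidase Cpz (-2.46). Without vismodegib replicate 3 Cyp2e1 (-2.88) and Tgm7 (-2.28) lost their calls, and Tgm7 also without healthy replicate 5 (-2.22).

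A set of genes lay close to their level in BCC skin. With clone, predicted and pseudogene names removed, 1136 genes passed against healthy skin with no overlap and at least 5 CPM in the higher group. Of these, 41 differed at least 2-fold from healthy skin and by less than 0.5 on the log2 scale from BCC skin. Of the 41 genes, 16 were higher and 25 lower than in healthy skin. Among all genes tested 1193 rose and 641 fell, but without the conditions on overlap, level and size of change, so the splits are not alike. That closeness to BCC skin chose them and is not a result. Rhof, a small GTPase of filopodia, had 22.1, 11.7, 16.2 and 20.1 CPM in vismodegib skin, 21, 17.4, 19.7 and 19.2 CPM in BCC skin and 5.17, 3.91, 4.28, 6.02 and 6.12 CPM in healthy skin (1.78 against healthy skin, SE 0.219, adjusted p = 9.21e-05). Mmp13, a collagenase, had 6.69, 10.9, 22.8 and 7.5 CPM in vismodegib skin, 2.75, 12.1, 20.3 and 3.6 CPM in BCC skin and 0.148, 0.35, 0.138, 0.55 and 0.318 CPM in healthy skin (5.29, SE 0.717, adjusted p = 0.000242). In both genes the induced mice, treated or not, lay above the healthy mice. The choice of genes without overlap and near BCC skin largely fixed this, and it is not a result. Bcl11b, a transcription factor of skin and T cells (1.53), the transglutaminase Tgm5 (1.65), the hyaluronan synthase Has3 (2.34), Lce1f (2.14) and Tcim (1.12) rose likewise against healthy skin. Glb1l2 (-1.87), the secreted phospholipase Pla2g2d (-1.22) and Trp53 fell.

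Cdkn2a and Vax1 lay between BCC skin and healthy skin. Cdkn2a, which encodes the p16 and p19 tumour suppressors, had 2.42, 3.47, 4.89 and 1.97 CPM in vismodegib skin, 17.7, 38.4, 25.3 and 14.7 CPM in BCC skin and 0.118, 0.467, 0.359, 0.463 and 0.636 CPM in healthy skin. The groups stood apart from each other, with log2 fold changes of 2.92 against healthy skin (SE 0.561, adjusted p = 0.0038) and -2.92 against BCC skin (adjusted p = 0.004). Vax1, a homeobox factor of the forebrain and eye, had 0.273, 0.122, 0.159 and 0.126 CPM in vismodegib skin, 3.74, 3.94, 4.97 and 3.08 CPM in BCC skin and 0.0296, 0, 0.0552, 0.0289 and 0.0145 CPM in healthy skin. It was low but above healthy skin in every vismodegib mouse (2.61, SE 0.566, adjusted p = 0.00865) and below BCC skin (-4.53, adjusted p = 0.000128). Of 21 p53 targets 1 rose (4.76%) and 2 fell (9.52%) against healthy skin, beside 7.57% and 4.07% of all genes tested. Their median was -0.01, with 0 rises and 3 falls when scaled by library size alone. Pmaip1, which promotes cell death, had 15.9, 21.9, 23.8 and 22.6 CPM in vismodegib skin and 14.6, 9.83, 11.3, 8.51 and 8.56 CPM in healthy skin (1.00, SE 0.258, adjusted p = 0.023), while Bbc3, with the same role, had 4.88, 4.81, 3.29 and 5.6 CPM in vismodegib skin and 8.63, 8.28, 6.54, 12.6 and 10.5 CPM in healthy skin (-0.999, SE 0.266, adjusted p = 0.0256). Both calls were lost without vismodegib replicate 3 or healthy replicate 4 or 5, and that of Pmaip1 also without healthy replicate 2 or 3 and with scaling by library size alone. Over the fits without 1 mouse each, the log2 fold change lay between 0.93 and 1.11 for Pmaip1 and between -1.14 and -0.87 for Bbc3.

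Another set was taken from the same 1136 genes, which passed against healthy skin with no overlap and at least 5 CPM in the higher group. Of these, 788 also passed against BCC skin. The 10 with the smallest p against BCC skin, which chose them, held 4 Sprr2 genes and Chil1. Pla2g4d, a cytosolic phospholipase of the epidermis, had 9.63, 10.5, 13.3 and 13 CPM in vismodegib skin, 0.232, 0.265, 0.187 and 0.0817 CPM in BCC skin and 0.207, 0.0875, 0.0276, 0.0579 and 0.0289 CPM in healthy skin (7.17, SE 0.54, adjusted p = 8.14e-07). Pla2g4e, of the same family, had 294, 149, 201 and 190.5 CPM in vismodegib skin, 24.4, 17.9, 24.8 and 10.7 CPM in BCC skin and 25.8, 14.9, 15.7, 14.8 and 16.7 CPM in healthy skin (3.57, SE 0.331, adjusted p = 7.95e-06). For both, BCC and healthy mice overlapped. That vismodegib mice lay apart from both groups follows from the choice of these genes and is not a result. Trex2, a keratinocyte exonuclease (2.93), and Tcf23 (6.04) also rose against healthy skin, and Vmac fell (-0.87).

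Of 14 circadian clock genes 1 rose and 3 fell (median -0.54), where 7.57% of all genes rose and 4.07% fell. Under the hair covariate 0 rose and 6 fell (median -1.15), and with scaling by library size alone 0 rose and 4 fell. The rise was lost without any single mouse other than vismodegib replicate 2, and 1 fell without vismodegib replicate 2 or 3 or healthy replicate 4 or 5. Dbp, a clock output factor, had 23, 8.16, 22.5 and 19.9 CPM in vismodegib skin and 44.8, 52.4, 52.2, 99.9 and 108 CPM in healthy skin, without overlap (-1.96, SE 0.45, adjusted p = 0.0125); the time of day of sampling is not given in the sources used here. Of 18 heat shock and stress genes 5 rose and 0 fell, or 2 rose without vismodegib replicate 3, without any of healthy replicates 2, 3, 4 and 5, and with scaling by library size alone, and 3 rose under the hair covariate. Of 17 immediate early genes 1 rose (5.88%, beside 7.57% of all genes) and 0 fell. It was Fosl1, a subunit of AP-1, which had 16.5, 4.69, 11.6 and 8.85 CPM in vismodegib skin and 1.69, 1.05, 1.99, 1.79 and 1.14 CPM in healthy skin, without overlap (2.76, SE 0.459, adjusted p = 0.00136). No member passed in either direction among 18 complement, 17 endothelial, 13 MHC class I, 12 nerve and 8 erythroid genes. At an unadjusted p under 0.05 edgeR gave 2 rises and 1 fall for complement, 1 rise for endothelial, 2 rises for MHC class I, 4 falls for nerve and 0 for erythroid genes. DESeq2 called 1 rise and 1 fall of complement, 1 rise of endothelial, 4 falls of nerve and 0 MHC class I or erythroid genes. Under the hair covariate 3 complement, 3 nerve and 1 endothelial gene fell, as did 2 nerve genes with scaling by library size alone.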

How the data were processed

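Poly-A RNA of whole skin was measured, per the labels' protocols, after TRIzol extraction and oligo dT enrichment with a directional kit. The deposited values are expected counts per gene that the authors made with Bowtie2 and RSEM on GRCm39, per the submitters' processing notes; for versions, annotation and strand setting, the sources used here give nothing, and overlapping and antisense genes cannot be told apart. Of 18521 genes, 3.42% of values were not whole. Expected counts were rounded and the libraries of a mouse summed. The 2 libraries of healthy replicate 5 carry ages of 128 and 135 days, so that its mouse number or an age may be wrong. Among the genes, 6 pairs of symbols had identical counts.

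All 16 mice, the 3 laser-treated mice included, entered 1 edgeR 4.0.16 quasi-likelihood fit (R 4.3.3). It used TMM scaling, filterByExpr (15760 genes kept, 2761 removed) and robust dispersion (common dispersion 0.178). The Benjamini-Hochberg adjustment ran over all genes tested, and "rose", "fell" and "passed" mean an adjusted p under 0.05. At an unadjusted p under 0.05 4986 genes passed. Standard errors (SE) are of the log2 fold change. P-values measure the spread between these mice. The 45 gene lists (854 symbols, 836 in the file, 804 tested) and the compared groups were chosen with earlier results of these data known. Named were Trp53, Ptch1, Gli1, Gli2 and Hhip, the 10 largest rises and falls (no overlap, at least 5 CPM in the higher group), the 3 smallest p of each list with a called member, and 10 genes each near to and differing from BCC skin; not every one is described. The fit was repeated with DESeq2 1.42.0, RLE scaling, scaling by library size, other filters, other samples, a replicate block, a hair covariate and leaving out each mouse. The script was tested on simulated data.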

Additional observations from a re-analysis of the deposited data

Results flagged for a closer look

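Within-group outliers were looked for with Dixon's test in 170 groups of 4 or 5 mice, made of 40 genes and 45 gene lists, and 16 groups held a mouse past the 95% critical value. Chance alone gives such a mouse in about 1 of 20 groups.

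Vismodegib replicate 3 stood far above its group for Krt6b (28400 CPM, next 8970), S100a9 (25900 CPM, next 2850), Serpinb3a (1190 CPM, next 226), Cstdc6 (713 CPM, next 130) and Defb3 (485 CPM, next 90.4). It also stood apart in the mean log2(CPM + 1) of the alarmins (6.84, next 5.23) and of the heat shock and stress genes (7.30, next 6.96). The other vismodegib mice were above all healthy mice for each of these 5 genes, but the rule that chose these genes required it.

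Vismodegib replicate 2 stood apart for the hair keratins (mean log2(CPM + 1) of 7.64, next 1.36), and was low for the cornified envelope genes (5.26, next 6.19) and MHC class I presentation (5.80, next 6.52). For the envelope genes it remained above every healthy mouse.

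Single values stood apart elsewhere. Vismodegib replicate 1 was high for Hamp2 (0.444 CPM, next 0.0609). Healthy replicate 1 was high for Pla2g4e (25.8 CPM, next 16.7), Trex2 (37.5 CPM, next 24.2) and S100a9 (7.13 CPM, next 2.81). Healthy replicate 4 was low for Ptch1 (28 CPM, next 66.5), and healthy replicate 5 was high for Serpinb3a (0.116 CPM, next 0.0296). The causes were not tested.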

How the results depend on the processing

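The number of changed genes (1834; 1193 up, 641 down) was 3136 (1793 up, 1343 down) in DESeq2, 1121 (765 up, 356 down) with the mice of both groups alone in the fit, and 3425 (1685 down) with all libraries as replicates. With scaling by library size alone 590 rose, and 39.7% of the calls were rises, against 65% in the fit reported. Under the growing-hair covariate 696 rose and 1289 fell (35.1% rises), and 21 of 115 named calls were lost. Leaving out 1 mouse at a time gave 951 to 3490 changed genes, 672 to 1971 rises and 240 to 1519 falls: 3490 without vismodegib replicate 2, 951 without vismodegib replicate 3, and 984 to 1099 without healthy replicate 2, 3, 4 or 5. The replicate block gave 1040 changed genes (701 up, 339 down). Vismodegib and healthy mice with the same number correlated at -0.11, 0.66, 0.05 and 0.31 in their deviations from the group means, so the numbers were not taken to pair them. RLE scaling, testing without a low-count filter, requiring 1 CPM in 4 mice and using the first library of each mouse kept the counts within 1.5 times. Jchain, which was not called (0.74), turned to -0.10 under the hair covariate and to -0.23 without vismodegib replicate 3 (range over single mice left out, -0.23 to 1.02). No other named gene reversed. The causes were not tested. Precision is limited by the number of mice and, for genes with few healthy counts, by counting error.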

Other observations

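Some genes that rose lay side by side on the chromosome. In the gene order of RefSeq GRCm38.p6, a build other than that of the counts, 15724 of the tested genes were placed. The longest run of neighbours that all rose against healthy skin held 11 genes, from Sprr2a1 to Sprr2k and Sprr1b, with log2 fold changes of 3.95 to 12.83. A run of 10 held Fam162a, Ccdc58 and 8 stefin and stefin-like genes (1.46 to 11.01), and a run of 6 held Lce3a to Lce3f (3.93 to 10.82). Runs of 4 held the IL-10 family genes Il24, Il20, Il19 and Il10 (2.17 to 7.13), the IL-36 genes Il1f8, Il1f9, Il1f6 and Il1f5 (2.95 to 7.71), the receptors Trem1, Trem3, Treml4 and Treml2 (2.22 to 6.92), and the metalloproteases Mmp1b, Mmp3, Mmp10 and Mmp8 (3.99 to 7.21). Among falls, a run of 4 held the lipid transporters Abca8a, Abca9, Abca6 and Abca5 (-1.81 to -1.12). Several of these clusters are families of near copies, between which reads can be split, so neighbours are not independent. How often such runs arise by chance was not tested, and the runs were chosen after their values were seen.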
